A study of Homo sapiens with 12 samples.

Results

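The genes followed here were 37 genes that the transcription factor ATF4 is known to control in the integrated stress response, ATF4 itself included. They were taken by symbol from a count table of 58037 gene identifiers, and each of the 37 matched 1 identifier. RNA-seq covered 12 samples in 4 groups of 3, from the human prostate cancer lines DU-145 and LNCaP-AI, which both carried a doxycycline-inducible (tet) MUC1 shRNA and were treated for a week with vehicle or doxycycline (DOX). The groups were therefore DU-145 vehicle, DU-145 DOX, LNCaP-AI vehicle and LNCaP-AI DOX, and the sample labels give vehicle as shCTL and DOX as shMUC1. DU-145 is an androgen-insensitive line, and LNCaP-AI was selected from LNCaP-derived C4-2B cells by long culture without androgens. The labels give phenol red-free medium with charcoal-stripped serum for both lines, whereas the study's methods give it for LNCaP-AI and ordinary medium with full serum for DU-145, so a difference in medium cannot be told apart from the difference between the lines. No DOX-treated control shRNA line was analysed here, so the action of DOX itself and that of the shRNA cannot be told apart. Nothing in the labels says that samples of a group were separate cultures beyond their being grown in triplicate, and p-values then measure only the spread between these samples.

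In the integrated stress response, kinases that sense amino acid shortage, misfolded protein in the endoplasmic reticulum, double-stranded RNA or heme shortage phosphorylate the translation factor eIF2. Most translation then slows, while the ATF4 mRNA, which carries upstream open reading frames, is translated more, so much of the control of ATF4 lies beyond its mRNA level. ATF4 pairs with C/EBP and other leucine zipper proteins and binds C/EBP-ATF response elements (CARE) at genes for amino acid synthesis, amino acid uptake and tRNA charging. It also raises factors that restore translation or, under lasting stress, promote cell death. In prostate and other cancers this program is known for supplying serine, asparagine and other amino acids to growing cells. The 37 genes were grouped as stress factors (9), effectors and feedback (9), serine and one-carbon enzymes (6), enzymes for asparagine, proline, cysteine and phosphoenolpyruvate (6) and amino acid transporters (7).

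Total counts per sample ran from 10423437 to 13544153 in DU-145 and from 16569613 to 26961777 in LNCaP-AI. MUC1, the target of the shRNA, had 74, 60 and 59 counts in DU-145 vehicle and 3 in each DOX sample (edgeR quasi-likelihood test with Benjamini-Hochberg adjustment, adjusted p = 1.37e-09). In LNCaP-AI it had 36, 25 and 52 counts with vehicle and 8, 6 and 3 with DOX (adjusted p = 0.0139). The LNCaP-AI samples also divided in a way that neither treatment nor any label gives. On the first principal component vehicle 1 stood with DOX 2 and DOX 3, while vehicle 2 and vehicle 3 stood with DOX 1, and it held 82.5% of the variance. Of 6 genes listed as DU-145 markers, CAV1, CD44 and KRT5 had 0 to 6 counts in the 3 samples of the first side and 789 to 2412 in the 3 of the second, EGFR was also higher on the second side, and VIM and ITGB4 overlapped. The summed level of these 6 genes was 154 to 169.6 CPM on the first side, 544 to 613 CPM on the second, and 1854 to 2265 CPM in DU-145. KRT5, however, was at 0 counts in 5 of 6 DU-145 samples. Of 8 LNCaP lineage markers, KLK2, KLK3, FOLH1 and HOXB13 were at 0 in every DU-145 sample, and the 8 summed to 40.6 to 54.5 CPM there. Their sum was 2614 to 4042 CPM in LNCaP-AI vehicle and 4119 to 5637 CPM in LNCaP-AI DOX, and 4 of the 8 were called higher with DOX. What set the LNCaP-AI samples apart was not tested, and each member called in that line is given with its value within each side. MUC1 had log2 fold changes of −2.65 and −2.27 within the sides.

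The letters of the CARE core were looked for at the start sites of the members. This core, searched as TGATGNAA on both strands from 250 bases before to 50 bases after each RefSeq start site (GRCh38.p14), was found in 10 of the 31 members with such a window (32.3%), against 4.46% of all 27305 gene symbols with one. By window the share was 20.0% of 50 for members and 3.62% of 35116 in all. No other motif was searched. The lines below give 30 bases around the core for the members that hold it and were tested in both lines, 5′ to 3′ on the strand where the core reads TGATGNAA, with the core in capitals. That strand is opposite to the gene for CHAC1, SLC1A4 and SLC3A2.
ASNS: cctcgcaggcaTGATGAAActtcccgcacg
ATF3: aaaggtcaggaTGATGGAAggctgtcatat
CEBPG: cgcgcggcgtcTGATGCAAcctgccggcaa
CHAC1: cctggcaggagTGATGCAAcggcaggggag
JDP2: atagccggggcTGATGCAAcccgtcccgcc
SLC1A4: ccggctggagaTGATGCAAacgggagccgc
SLC1A5: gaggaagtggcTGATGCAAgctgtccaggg
SLC3A2: ggagcTGATGTAAggagtcctgcacattac
SLC7A1: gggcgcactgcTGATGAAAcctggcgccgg

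The ASNS window lies at chr7:97872458-97872487 on the minus strand, and the first base of its core is at −68 from the start site of the asparagine synthetase gene. The CHAC1 core lies within chr15:40953251-40953280 and starts at −209, and the SLC1A4 core within chr2:64989381-64989410. In SLC3A2 (chr11:62881719-62881748) and SLC7A1 (chr13:29595663-29595692) the core falls just after the start site, inside the transcribed region. FGF21, the tenth gene with a core, was too weakly counted to be tested. NUPR1, EIF4EBP1, PSPH, SHMT2, ALDH1L2 and PYCR1 had no window. CHAC1 was among the most raised members in DU-145. It is shown with the whole 250 bases before its start (chr15:40953221-40953470, plus strand), in which the capitals mark the core on the opposite strand.
CHAC1 upstream: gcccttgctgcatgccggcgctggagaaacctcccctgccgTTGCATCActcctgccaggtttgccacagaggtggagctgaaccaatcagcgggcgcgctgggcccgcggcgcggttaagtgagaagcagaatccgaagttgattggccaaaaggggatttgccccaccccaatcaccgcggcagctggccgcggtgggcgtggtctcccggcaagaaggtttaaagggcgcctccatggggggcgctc

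Of the 9 core-bearing members tested in DU-145, 8 were called higher and 1 (JDP2) lower with DOX, and of the other 26 tested members 18 were higher and 3 lower. In LNCaP-AI the same 9 gave 1 higher and 3 lower call, and the other 27 gave 1 and 4. The other members, some of them without a window, thus also rose for the most part in DU-145. Of all genes tested, 26.3% were called higher and 25.3% lower in DU-145, and 7.22% and 5.52% in LNCaP-AI. Calls among core-bearing genes outside the members were not counted. A match to these letters is a description of the sequence and not a bound site.

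With DOX, most members rose in DU-145 and few did in LNCaP-AI. In DU-145, 35 members passed the count filter and 26 rose while 4 fell (adjusted p under 0.05), where 26.3% of all 13644 genes tested were called higher and 25.3% lower. The members had a median log2 fold change of 0.576, and all genes one of 0.001. In LNCaP-AI, 36 members were tested and 2 rose while 7 fell, where 7.22% of 16030 genes were called higher and 5.52% lower. The median of the members there was −0.309 against −0.054 for all genes, and 27 of 36 members had a negative value. In either direction, 51.5% of all genes were called in DU-145 and 12.7% in LNCaP-AI. Each called member had vehicle and DOX samples that did not overlap. In DU-145 the groups did not overlap for 26 members that were higher and 4 that were lower, where this held for 57.3% of all genes, 29.1% higher and 28.2% lower. In LNCaP-AI they did not overlap for 5 higher and 17 lower members, where this held for 38.1% of all genes, 21.9% higher and 16.1% lower. In bulk RNA, fewer cells carrying a transcript and less of it per cell cannot be told apart.

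**Figure D1:**
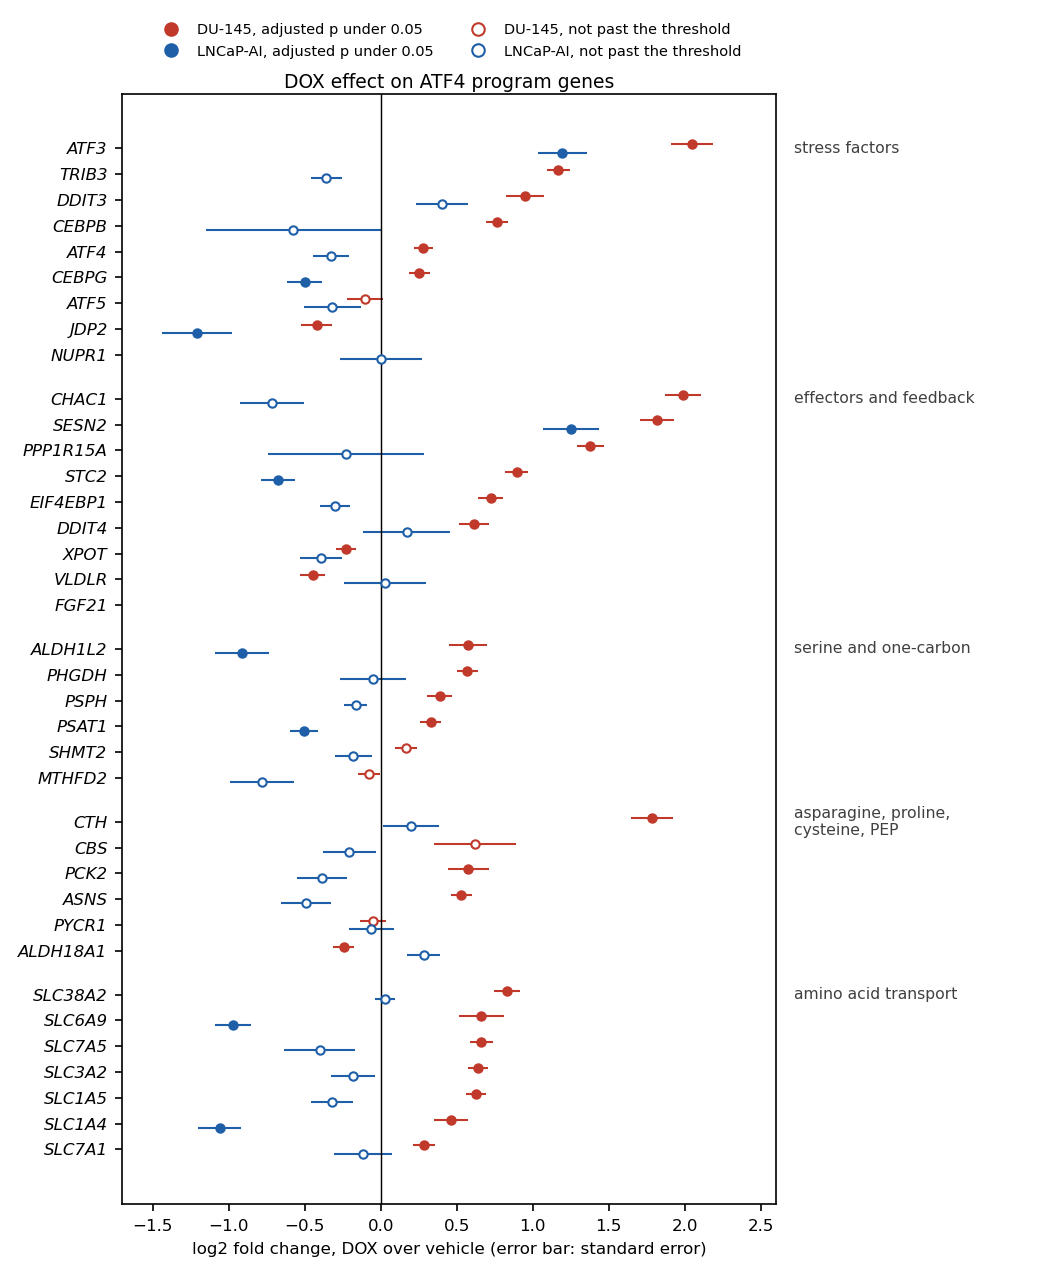
Log2 fold change of DOX over vehicle for each member, by functional group, in DU-145 (red) and LNCaP-AI (blue), with the standard error as bars and filled points for an adjusted p under 0.05. Of 35 red points, 28 lie to the right of 0, up to 2.05 for ATF3, while 27 of 36 blue points lie to the left, and FGF21 has no point because it was not tested.

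ATF4 mRNA itself moved little. In DU-145, ATF4, the leucine zipper factor that names the program, measured 265, 281 and 271 CPM with vehicle and 325, 335 and 329 CPM with DOX. Every DOX sample lay above every vehicle sample, and the rise was small (log2 fold change 0.28 ± 0.07, adjusted p = 0.00139). In LNCaP-AI it measured 335, 262 and 271 CPM with vehicle and 234, 234 and 238 CPM with DOX. There the DOX samples lay below all vehicle samples, within a narrow range, but the difference missed the threshold (log2 fold change −0.33 ± 0.12, adjusted p = 0.121), and it was −0.51 on the side of vehicle 1 and −0.19 on the side of vehicle 2 and vehicle 3.

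Among the other stress factors, 5 of the 7 tested in DU-145 rose. ATF3, a stress-induced repressor and activator that is also a known p53 target, measured 5.24, 4.55 and 6.12 CPM with vehicle and 22.4, 19.4 and 24.5 CPM with DOX (log2 fold change 2.05 ± 0.14, adjusted p = 7.57e-10). ATF3 thus rose to about 4.14 times its vehicle level, the most of any member. TRIB3, a pseudokinase that feeds back on ATF4 and on AKT, measured 38.2, 42.0 and 37.5 CPM with vehicle and 85.4, 92.1 and 84.9 CPM with DOX (log2 fold change 1.17 ± 0.08, adjusted p = 3.4e-10). DDIT3, which encodes the pro-apoptotic factor CHOP, measured 8.52, 10.5 and 9.98 CPM with vehicle and 16.6, 19.0 and 19.8 CPM with DOX (log2 fold change 0.95 ± 0.12, adjusted p = 3.04e-06). In these genes the DOX samples were closely grouped and far from vehicle. CEBPB, a C/EBP factor that dimerizes with ATF4, measured 58.0, 59.7 and 58.7 CPM with vehicle and 104, 94.3 and 100.4 CPM with DOX (log2 fold change 0.77 ± 0.07, adjusted p = 4.49e-08). Its partner CEBPG rose less (log2 fold change 0.25 ± 0.07, adjusted p = 0.00506). JDP2, a repressor of the AP-1 family, was the single stress factor that fell in DU-145, from 24.7, 23.0 and 25.3 CPM to 16.6, 20.1 and 17.4 CPM (log2 fold change −0.42 ± 0.10, adjusted p = 0.00179). ATF5, a relative of ATF4, did not pass the test (log2 fold change −0.10 ± 0.12, adjusted p = 0.490), and its exons overlap those of other genes on the opposite strand. DDIT3 also shares exon sequence with the opposite-strand gene MARS1, and the strand setting of the counting is not given in the sources used here.

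In LNCaP-AI, ATF3 was the stress factor that was called higher. It measured 31.1, 24.7 and 23.7 CPM with vehicle and 52.4, 63.6 and 69.6 CPM with DOX (log2 fold change 1.19 ± 0.16, adjusted p = 0.0144), and its difference was 1.10 on the side of vehicle 1 and 1.11 on the other side. All DOX samples stood clear of all vehicle samples in both lines for this gene. JDP2 fell, as in DU-145, from 9.94, 6.36 and 7.32 CPM to 3.78, 2.97 and 3.66 CPM (log2 fold change −1.21 ± 0.23, adjusted p = 0.0257), with −1.58 and −0.85 within the sides. CEBPG, which had risen in DU-145, fell in LNCaP-AI. It measured 94.4, 84.4 and 73.9 CPM with vehicle and 63.0, 59.5 and 59.7 CPM with DOX (log2 fold change −0.50 ± 0.12, adjusted p = 0.0425), and within the sides −0.66 and −0.33. TRIB3 (−0.36 ± 0.10) and DDIT3 (0.40 ± 0.17) had DOX samples wholly below and wholly above vehicle, respectively, without passing the test (adjusted p = 0.0753 and 0.168). NUPR1, a small chromatin protein induced by stress, had 2 to 6 counts in each DU-145 sample and 1004 to 2385 in each LNCaP-AI sample. It gave no test in DU-145 and no change with DOX that passed the test in LNCaP-AI (log2 fold change 0.00 ± 0.27, adjusted p = 0.996).

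The effectors and feedback genes held several of the largest changes in DU-145, where 6 rose and 2 fell of the 8 tested. CHAC1, a glutathione-degrading enzyme that serves as a marker of the pathway, measured 7.45, 5.66 and 6.63 CPM with vehicle and 25.8, 26.0 and 26.7 CPM with DOX (log2 fold change 1.99 ± 0.12, adjusted p = 1.17e-10), a level 3.96 times that of vehicle. SESN2, a leucine sensor that restrains mTORC1 and is also a known p53 target, measured 8.76, 9.91 and 8.73 CPM with vehicle and 33.3, 34.2 and 28.4 CPM with DOX (log2 fold change 1.82 ± 0.11, adjusted p = 1.57e-10). PPP1R15A encodes GADD34, which brings a phosphatase to eIF2 and so restores translation, and it measured 45.9, 34.8 and 41.7 CPM with vehicle and 106, 114 and 98.4 CPM with DOX (log2 fold change 1.38 ± 0.09, adjusted p = 3.17e-10). For these genes the lowest DOX sample stood far above the highest vehicle sample. STC2, a secreted glycoprotein, measured 168, 147 and 165 CPM with vehicle and 292, 325 and 271 CPM with DOX (log2 fold change 0.89 ± 0.08, adjusted p = 1.52e-08). EIF4EBP1, an inhibitor of cap-dependent translation (0.72 ± 0.08), and DDIT4, an mTORC1 inhibitor also called REDD1 (0.61 ± 0.10), rose less.

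VLDLR, a lipoprotein receptor, and XPOT, which exports tRNA from the nucleus, went the other way in DU-145. VLDLR fell from 52.3, 55.3 and 53.7 CPM to 43.7, 37.5 and 36.6 CPM (log2 fold change −0.45 ± 0.08, adjusted p = 1.53e-04). XPOT fell from 457, 435 and 439.7 CPM to 386, 369.5 and 375 CPM (log2 fold change −0.23 ± 0.07, adjusted p = 0.00729), a small change with no overlap between groups. FGF21, a secreted metabolic hormone, had 0 counts throughout DU-145 and 0 to 4 in LNCaP-AI, at or near the limit of 3 counts that a count of 0 allows.

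In LNCaP-AI, SESN2 rose and STC2 fell within this group. SESN2 measured 22.1, 14.5 and 17.4 CPM with vehicle and 38.4, 46.0 and 46.6 CPM with DOX (log2 fold change 1.25 ± 0.18, adjusted p = 0.0159), with 1.07 and 1.27 within the sides. ATF3 and SESN2 were therefore called higher in both lines, and they were the only members that were. DDIT3 (0.40) and SLC38A2 (0.03), both called higher in DU-145, also had all DOX samples above vehicle in LNCaP-AI without passing the test. STC2 measured 84.0, 67.9 and 69.8 CPM with vehicle and 48.2, 47.7 and 45.9 CPM with DOX (log2 fold change −0.67 ± 0.11, adjusted p = 0.0203), with −0.85 and −0.52 within the sides, a direction opposite to that in DU-145. CHAC1 measured 9.23, 6.57 and 6.42 CPM with vehicle and 4.03, 4.91 and 4.90 CPM with DOX, so that the DOX samples stood below all vehicle samples, but the test was missed (log2 fold change −0.71 ± 0.21, adjusted p = 0.0772). EIF4EBP1 and XPOT likewise had DOX samples below vehicle without passing (−0.30 ± 0.10 and −0.39 ± 0.14).

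Serine synthesis runs through PHGDH, PSAT1 and PSPH, and the serine is then passed by SHMT2, MTHFD2 and ALDH1L2 into mitochondrial one-carbon metabolism. In DU-145 all 3 serine enzymes rose. PHGDH, the first and committed step, measured 78.4, 79.2 and 72.8 CPM with vehicle and 116, 114 and 109 CPM with DOX (log2 fold change 0.57 ± 0.07, adjusted p = 1.17e-06). PSAT1, the transaminase, measured 474, 422 and 467 CPM with vehicle and 567, 557 and 579 CPM with DOX (log2 fold change 0.33 ± 0.07, adjusted p = 7.12e-04). PSPH, the final phosphatase, measured 38.2, 44.9 and 45.2 CPM with vehicle and 57.5, 53.6 and 55.8 CPM with DOX (log2 fold change 0.39 ± 0.08, adjusted p = 7.01e-04). The DOX samples lay above vehicle in each, by 1.26 to 1.48 times in the fit. Of the mitochondrial enzymes, ALDH1L2, which oxidizes formyl-tetrahydrofolate, rose (log2 fold change 0.58 ± 0.12, adjusted p = 7.5e-04), whereas SHMT2 (log2 fold change 0.17 ± 0.07, adjusted p = 0.0584) and MTHFD2 (log2 fold change −0.08 ± 0.07, adjusted p = 0.377) did not pass the test.

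None of these 6 enzymes rose in LNCaP-AI, all 6 had negative values, and PSAT1 and ALDH1L2 fell. PSAT1 measured 346, 341 and 296 CPM with vehicle and 245, 229.5 and 232 CPM with DOX (log2 fold change −0.51 ± 0.09, adjusted p = 0.0244), with −0.59 and −0.38 within the sides. ALDH1L2 measured 8.60, 9.62 and 9.37 CPM with vehicle and 5.82, 3.99 and 5.13 CPM with DOX (log2 fold change −0.91 ± 0.18, adjusted p = 0.0277), with −0.92 and −0.71 within the sides. Both had all DOX samples below all vehicle samples, the reverse of DU-145. MTHFD2 measured 135, 166 and 156 CPM with vehicle and 120.3, 74.8 and 75.1 CPM with DOX, with the DOX samples below vehicle and the adjusted p just past the threshold (log2 fold change −0.78 ± 0.21, adjusted p = 0.0598). PHGDH showed hardly any difference (−0.05 ± 0.22), with a wide spread among the samples of each group. Exons of SHMT2, MTHFD2 and ALDH1L2 overlap other genes on the opposite strand.

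Enzymes for other amino acids were split. In DU-145, CTH, the enzyme that releases cysteine in transsulfuration, measured 7.94, 6.47 and 4.87 CPM with vehicle and 22.9, 22.3 and 21.1 CPM with DOX (log2 fold change 1.79 ± 0.14, adjusted p = 4.04e-09), a level 3.45 times that of vehicle. ASNS, which makes asparagine from aspartate and glutamine, measured 147, 162 and 153 CPM with vehicle and 229, 212 and 222 CPM with DOX (log2 fold change 0.53 ± 0.07, adjusted p = 2.8e-06). PCK2, which makes phosphoenolpyruvate in mitochondria, rose (log2 fold change 0.58 ± 0.13, adjusted p = 0.00133). These were the members of the group that rose, and in each the groups did not overlap. The proline enzymes did not rise. ALDH18A1, the first step from glutamate towards proline, fell from 116, 109 and 111 CPM to 102, 91.6 and 90.0 CPM (log2 fold change −0.24 ± 0.07, adjusted p = 0.00706), and PYCR1, the last step, did not pass the test (log2 fold change −0.05 ± 0.09, adjusted p = 0.658). CBS, which works upstream of CTH, had 16 to 39 counts per DU-145 sample and did not pass (log2 fold change 0.62 ± 0.27, adjusted p = 0.0617), and its count is uncertain because a near-identical copy of the gene is annotated.

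No member of this group passed the test in LNCaP-AI. ASNS measured 209.9, 185 and 143 CPM with vehicle and 116, 136 and 138 CPM with DOX, with all DOX samples below vehicle (log2 fold change −0.49 ± 0.16, adjusted p = 0.104). PCK2 also had non-overlapping lower values (log2 fold change −0.39 ± 0.16, adjusted p = 0.167), and ALDH18A1 had non-overlapping higher values (log2 fold change 0.28 ± 0.11, adjusted p = 0.134). CTH, so raised in DU-145, measured 7.27, 8.98 and 7.42 CPM with vehicle and 8.22, 8.22 and 11.2 CPM with DOX, and its groups overlapped (log2 fold change 0.20 ± 0.18, adjusted p = 0.520).

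Amino acid transport was the most uniform group, as all 7 transporters rose in DU-145. SLC38A2, the sodium-coupled carrier SNAT2 for small neutral amino acids, measured 515, 444 and 578 CPM with vehicle and 927, 926 and 868 CPM with DOX (log2 fold change 0.83 ± 0.09, adjusted p = 2.1e-07). SLC7A5 and SLC3A2 form the heterodimer LAT1 and CD98, which takes up leucine and other large neutral amino acids, and both rose (0.66 ± 0.08 and 0.64 ± 0.07). The glutamine carrier SLC1A5, also called ASCT2, measured 131, 127 and 124 CPM with vehicle and 201, 192 and 192 CPM with DOX (log2 fold change 0.63 ± 0.06, adjusted p = 1.97e-07). Its relative SLC1A4, which carries serine and alanine (0.46 ± 0.11), the glycine transporter SLC6A9 (0.66 ± 0.15) and the cationic amino acid transporter SLC7A1 (0.29 ± 0.07) rose too. In none of the 7 did the DOX samples overlap with vehicle.

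In LNCaP-AI no transporter rose in the test, and SLC1A4 and SLC6A9 fell. SLC1A4 measured 17.7, 15.9 and 15.8 CPM with vehicle and 9.07, 7.30 and 7.77 CPM with DOX (log2 fold change −1.06 ± 0.14, adjusted p = 0.0141), with −1.23 and −0.80 within the sides. SLC6A9 measured 17.1, 15.4 and 16.1 CPM with vehicle and 8.87, 7.99 and 8.39 CPM with DOX (log2 fold change −0.97 ± 0.12, adjusted p = 0.0126), with −1.06 and −0.83 within the sides. Each stood at about 0.48 to 0.51 times its vehicle level, with the groups far apart. SLC38A2, in contrast, was nearly flat, at 315, 314 and 300.2 CPM with vehicle and 322, 322 and 321 CPM with DOX (log2 fold change 0.03 ± 0.07, adjusted p = 0.801). The exons of SLC6A9 overlap CCDC24 on the opposite strand.

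**Figure D2:**
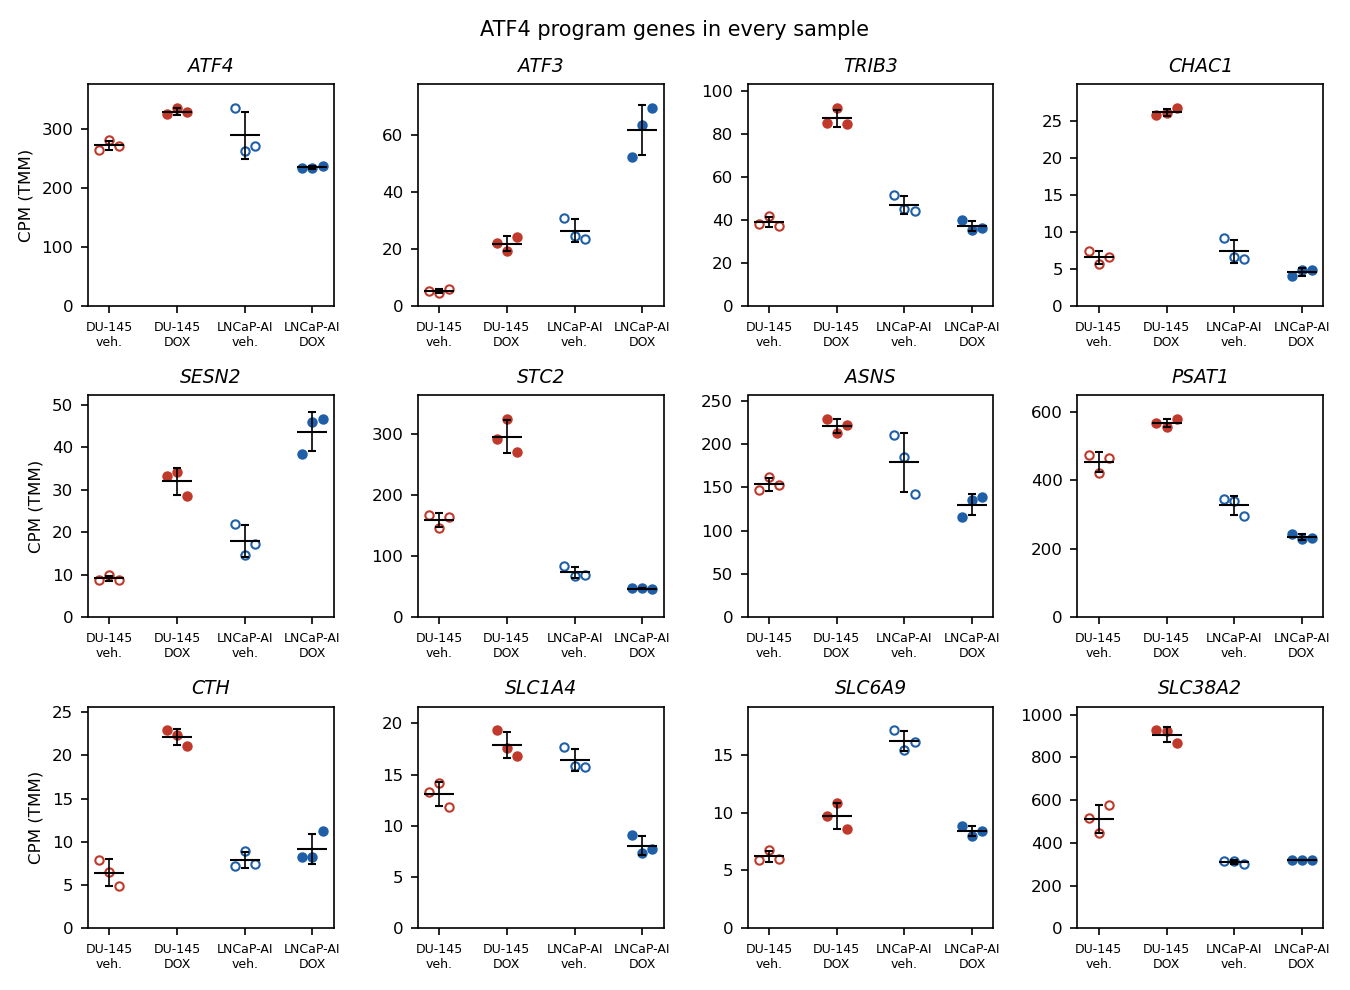
Level of 12 members in every sample, in CPM scaled by TMM from 0, with open points for vehicle, filled points for DOX, and the mean and SD of each group of 3. CHAC1, TRIB3, CTH and SLC38A2 are called higher with DOX in DU-145 and not in LNCaP-AI. ATF3 and SESN2 are called higher in both lines, and SLC1A4, SLC6A9, STC2 and PSAT1 rise in DU-145 and fall in LNCaP-AI.

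The 9 calls in LNCaP-AI were lost when DOX 2 or DOX 3 was left out, although the log2 fold changes stayed at 0.846 to 1.03 times their pooled size. Without DOX 2 none of the 9 was called (adjusted p from 0.088 to 0.174), and without DOX 3 none was (adjusted p from 0.0845 to 0.175), and in each of these fits 1 gene in all was called. Without vehicle 1, CEBPG was lost (adjusted p = 0.0505), without vehicle 2 ALDH1L2, CEBPG and PSAT1 were lost (largest adjusted p = 0.0747), and without vehicle 3 ALDH1L2 was lost (adjusted p = 0.0654). All 9 kept the sign of their pooled value on both sides of the division. Their vehicle and DOX samples did not overlap, which fixes these signs in advance, so the signs are no check of the calls. A fit of the samples of vehicle 1's side alone with the 6 DU-145 samples, added after the data were seen, called 4 members higher and 22 lower, and a fit of the other side called 3 higher and 11 lower. On each side 1 arm is a single sample (vehicle 1, or DOX 1), so these fits take their spread mostly from the DU-145 samples, assume that the lone sample varies alike, and lend the 9 calls no support. Across the 36 tested members, 26 were negative on both sides, 8 positive on both and 2 of opposite sign. In DU-145, by comparison, all 30 calls held whichever sample was left out.

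Some members parted the LNCaP-AI samples along this division rather than by DOX. CEBPB, PPP1R15A, SLC7A5, DDIT4 and SLC3A2 were higher in every sample of vehicle 2, vehicle 3 and DOX 1 than in any sample of the other side. PHGDH, NUPR1, VLDLR, PYCR1 and SLC7A1 were lower in each of them. These were 5 and 5 of 36 members, or 13.9% in each direction, where 21.4% and 13.8% of all genes parted the sides in the same way. The members thus did not stand out from all genes in this respect. CEBPB measured 26.7 CPM in vehicle 1 and 24.0 and 24.2 CPM in DOX 2 and DOX 3, but 65.3, 82.2 and 70.4 CPM in vehicle 2, vehicle 3 and DOX 1. PPP1R15A measured 6.15, 8.44 and 9.18 CPM on the first side and 16.4, 20.2 and 19.4 CPM on the second. The standard errors of the DOX effect were widest for CEBPB (−0.57 ± 0.57) and PPP1R15A (−0.23 ± 0.51), so the absence of a call says little about these genes. On the first side alone PPP1R15A was 0.54 higher and NUPR1 0.35 lower with DOX in log2, which are −0.23 and 0.00 in the pooled comparison.

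**Figure D3:**
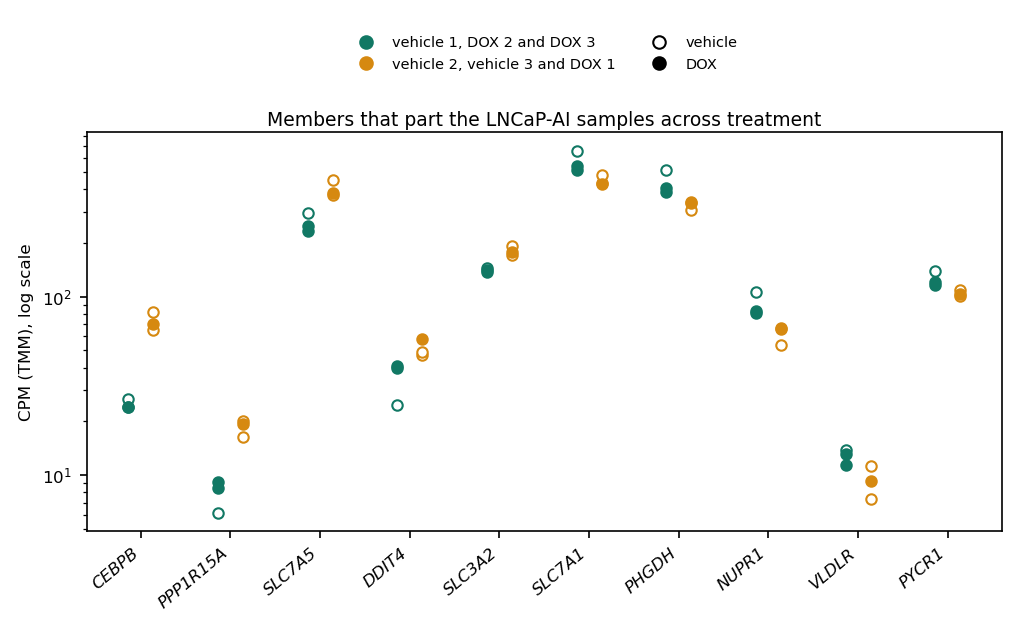
Level of the 10 members that part the LNCaP-AI samples across treatment, in CPM on a log axis, with vehicle 1, DOX 2 and DOX 3 in green, vehicle 2, vehicle 3 and DOX 1 in orange, open points for vehicle and filled points for DOX. CEBPB stands at 24.0 to 26.7 CPM in green and 65.3 to 82.2 CPM in orange, so the colours separate while open and filled points mix.

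The difference between the lines was tested directly, as the DOX effect in LNCaP-AI minus that in DU-145. Of 36 members tested, 19 had a lower effect in LNCaP-AI and 1 a higher one, where 3.76% of 16800 genes were called lower and 5.43% higher. The median difference was −0.778 for the members and −0.023 for all genes. CHAC1 differed most, by −2.67 ± 0.23 in log2 (adjusted p = 2.75e-04). SLC6A9 (−1.59 ± 0.17), CTH (−1.56 ± 0.26), STC2 (−1.53 ± 0.14), TRIB3 (−1.49 ± 0.12), SLC1A4 (−1.48 ± 0.17) and ALDH1L2 (−1.45 ± 0.20) followed among the called members. By group, 6 of 7 transporters were called lower, with SLC7A1 the exception (−0.36 ± 0.21, adjusted p = 0.309), as were 3 of 6 serine and one-carbon enzymes and 4 of 9 stress factors, among them ATF4 (−0.57 ± 0.12, adjusted p = 0.0178). ATF3 rose in both lines but less in LNCaP-AI (−0.83 ± 0.22, adjusted p = 0.0409), while the difference in SESN2 missed the threshold (−0.53 ± 0.21, adjusted p = 0.145). ALDH18A1 was the single member with a higher effect in LNCaP-AI (0.56 ± 0.12, adjusted p = 0.0190). MUC1 stood at 4.95 to 6.07 CPM in DU-145 vehicle and 1.34 to 1.80 CPM in LNCaP-AI vehicle, and at 0.236 to 0.283 and 0.169 to 0.342 CPM with DOX, so that it started higher in DU-145. The part of this starting level in the differences was not tested.

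By call, 6 members rose in DU-145 and fell in LNCaP-AI (CEBPG, STC2, PSAT1, ALDH1L2, SLC6A9 and SLC1A4). ATF3 and SESN2 rose in both, JDP2 fell in both, and 18 rose in DU-145 without a call in LNCaP-AI. By sign alone, 22 of the 35 members tested in both lines were positive in DU-145 and negative in LNCaP-AI, 2 were the reverse, 6 were positive in both and 5 negative in both. The share of all genes in each of these classes was not counted, so the counts only describe the members. Taken singly, 26.3% of all genes were called higher in DU-145 and 5.52% lower in LNCaP-AI. Of the 20 called differences, 13 held whichever sample was left out. ATF3, PCK2 and SLC7A5 were lost in 8, 8 and 10 of the 12 such fits. ATF4 and SLC3A2 were lost without LNCaP-AI DOX 2 and without LNCaP-AI DOX 3, PSPH without LNCaP-AI DOX 3, and ALDH18A1 without DU-145 DOX 2, DU-145 DOX 3 or LNCaP-AI DOX 2 (largest adjusted p in any of these fits 0.0983).

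**Figure D4:**
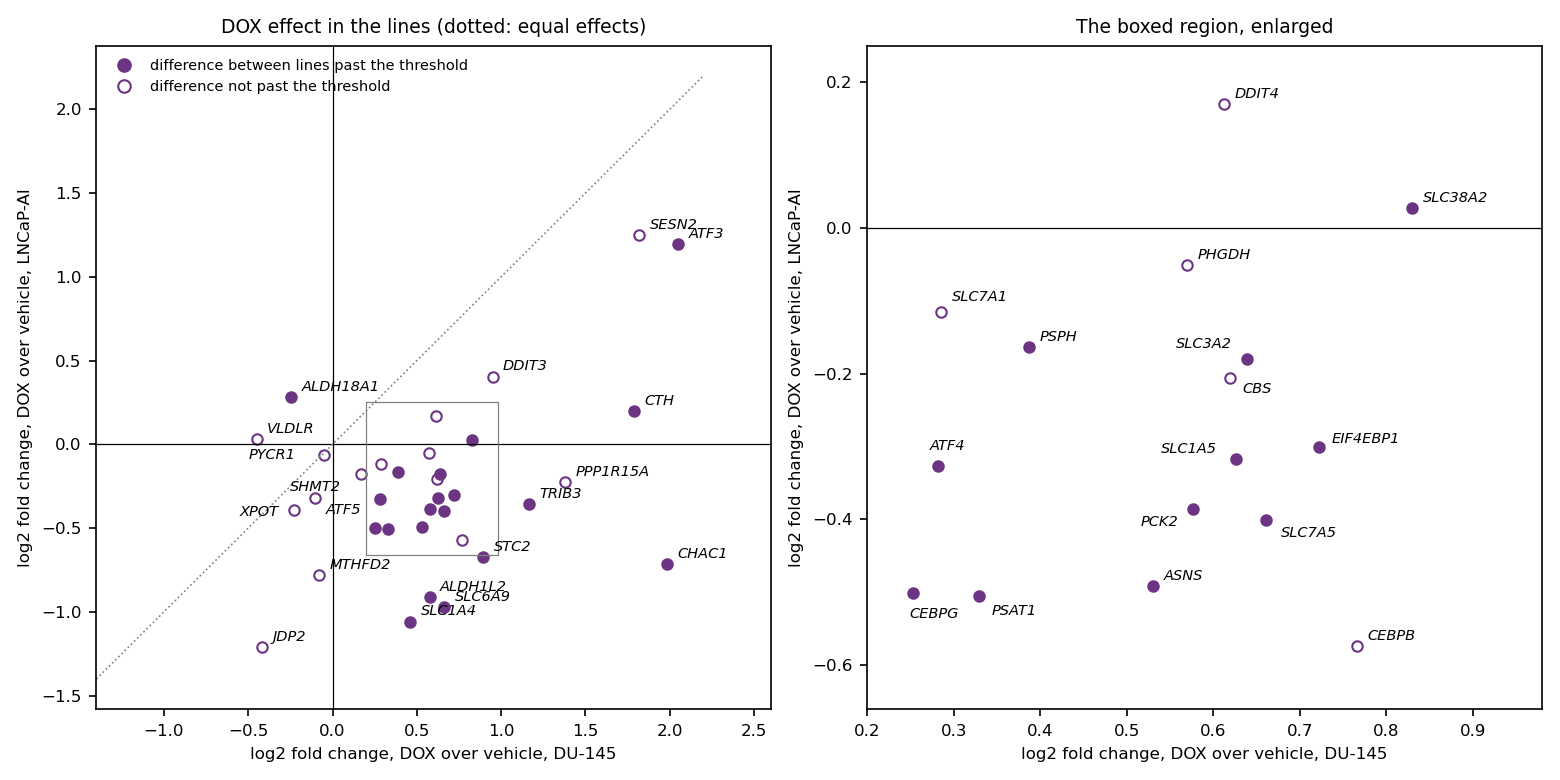
Log2 fold change of DOX over vehicle in DU-145 (horizontal) and LNCaP-AI (vertical) for the 35 members tested in both lines, with the crowded region enlarged at right and filled points where the difference between the lines had an adjusted p under 0.05. Most points lie right of and below the dotted line of equal effects, CHAC1 farthest, while ATF3 and SESN2 lie in the upper right and JDP2 in the lower left.

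Without DOX, the lines already differed in many members, but in either direction no more often than in all genes tested. Of 36 tested, 15 were higher and 7 lower in LNCaP-AI vehicle than in DU-145 vehicle, or 41.7% and 19.4%, where 35% of 15628 genes were higher and 30.2% lower, or 65.1% in either direction. Groups did not overlap for 18 higher and 7 lower members, where this held for 73.3% of all genes, 39.8% higher and 33.5% lower. ATF4 mRNA differed little (log2 fold change 0.05 ± 0.12, adjusted p = 0.721). PHGDH was at 76.8 ± 3.45 CPM (SD, n = 3) in DU-145 and 384 ± 111 CPM (SD, n = 3) in LNCaP-AI (log2 fold change 2.29 ± 0.20, adjusted p = 7.72e-05). PSAT1, the next step, was the reverse, at 454 ± 27.8 CPM (SD, n = 3) and 328 ± 27.7 CPM (SD, n = 3) (log2 fold change −0.51 ± 0.10, adjusted p = 0.00314). Thus the enzymes of serine synthesis did not differ as a block between the lines. ATF3 (2.28 ± 0.18), CBS (2.13 ± 0.22), PCK2 (1.60 ± 0.21), SLC6A9 (1.35 ± 0.14), DDIT4 (1.28 ± 0.26) and SESN2 (0.94 ± 0.19) were also higher in LNCaP-AI. VLDLR (−2.35 ± 0.22), JDP2 (−1.66 ± 0.19), PPP1R15A (−1.55 ± 0.39), STC2 (−1.15 ± 0.11), MTHFD2 (−0.85 ± 0.11) and SLC38A2 (−0.76 ± 0.11) were lower. NUPR1 divided the lines almost completely, at 4, 2 and 3 counts in DU-145 vehicle and 2385, 1004 and 1899 in LNCaP-AI vehicle. The calls of ATF5 and XPOT (both higher in LNCaP-AI) were lost when DU-145 vehicle 1, 2 or 3 was left out, and XPOT also without LNCaP-AI vehicle 2. CEBPB, at −0.06 ± 0.36 with all samples, was 0.37 higher in LNCaP-AI without its vehicle 1 (adjusted p = 0.00341). Across all alternatives its value ran from −1.08 to 0.37.

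Levels of different genes are compared here as CPM per kilobase of exon. The length is that of all annotated exons of a gene merged, which can exceed the length of its transcript. It was 2206 bases for PSAT1, but 9187 for PHGDH and 11443 for MTHFD2, so the order below holds for this measure only. By it, PSAT1 was the highest member in both vehicle groups, at 206 ± 12.6 (SD, n = 3) in DU-145 and 149 ± 12.6 in LNCaP-AI. ATF4 came next, at 104 ± 3.00 and 111 ± 15.2. After them, SLC38A2 (78.7 ± 10.3) and SLC7A5 (65.0 ± 3.59) overlapped in DU-145, and EIF4EBP1 (86.0 ± 4.30), SLC7A5 (78.3 ± 16.4) and XPOT (78.3 ± 11.7) overlapped in LNCaP-AI, so that the third place was not resolved in either line. At the low end in DU-145 were SLC6A9 (1.18 ± 0.0933), ALDH1L2 (0.911 ± 0.0561), CBS (0.262 ± 0.0446), NUPR1 and FGF21. VLDLR was near the bottom in LNCaP-AI (0.657 ± 0.197).

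The rest of the pathway was followed in 6 further gene lists. The cytosolic aminoacyl-tRNA synthetases, which load amino acids onto tRNA and are classic ATF4 targets, moved with the members. In DU-145, where 26.3% of all genes were called higher and 25.3% lower, 10 of 12 rose and 1 fell (median 0.444). AARS1 (0.66 ± 0.07) and CARS1 (0.63 ± 0.08) led, and WARS1, which interferon also induces, fell (−1.34 ± 0.08). In LNCaP-AI, where 7.22% of all genes were called higher and 5.52% lower, none rose and 3 fell. All 12 values were negative there (median −0.35), with WARS1 (−1.25 ± 0.16) and IARS1 (−0.55 ± 0.12) lowest. The difference between the lines was called lower in LNCaP-AI for 9 of 12, where this held for 3.76% of all genes. The split seen for transporters and serine enzymes was thus also present in the synthetases, WARS1 apart, which fell in both lines.

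Other reported ATF4 targets were mixed. Of 17 tested in DU-145, 7 rose (41.2%) and 4 fell (23.5%), with a median of 0.135, where 26.3% of all genes were called higher and 25.3% lower. The growth arrest gene GADD45A (adjusted p = 6.45e-10) and the angiogenic factor VEGFA (1.33 ± 0.07) were highest, and the amino acid carriers SLC43A1 (−0.94 ± 0.29) and SLC36A1 (−0.67 ± 0.10) lowest. In LNCaP-AI, where 7.22% of all genes were called higher and 5.52% lower, 2 of 18 rose and 2 fell. These were GDF15, a secreted stress cytokine that p53 also induces (3.11 ± 0.21), the autophagy adaptor SQSTM1 (1.13 ± 0.09), the transaminase BCAT1 (−0.66 ± 0.15) and the glutamine carrier SLC38A1 (−0.42 ± 0.10). GDF15 was too low to be tested in DU-145.

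The upstream machinery and the other arms of the unfolded protein response held genes that moved either way in DU-145, where 51.5% of all genes were called. Of 18 eIF2 kinases and eIF2 factors, 7 rose and 3 fell in DU-145 (median 0.105), EIF2AK4 (GCN2, the amino acid sensor) being the highest (0.36 ± 0.07) and EIF2S3, a subunit of eIF2, the lowest (−0.69 ± 0.07), so that the share called was near that of all genes. In LNCaP-AI 0 of the 18 were called by edgeR, and 3 had an unadjusted p under 0.05. Of 19 genes of the IRE1 and ATF6 arms, which answer misfolded protein in parallel to ATF4, 9 rose and 4 fell in DU-145 (median 0.116) and 3 rose in LNCaP-AI (median 0.164), led by the cochaperone DNAJB9 (0.72 ± 0.16) and by HSPA5, the chaperone BiP (0.53 ± 0.11). In LNCaP-AI, 14 of these 19 values were positive, against 9 of 36 for the members.

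Folate and glycine enzymes outside the program gave 5 higher and 3 lower of 14 in DU-145, a share near the 51.5% of all genes, and 2 higher and 5 lower of 15 in LNCaP-AI, where 12.7% of all genes were called. The serine carrier SFXN1 fell in DU-145 (−0.88 ± 0.07). In LNCaP-AI, ALDH1L1 rose (1.80 ± 0.27) and GLDC, which cleaves glycine, fell (−0.80 ± 0.17). The proline and arginine enzymes gave 3 higher and 1 lower of 9 in DU-145, with OAT highest among those called (0.54 ± 0.07) and ASS1, of arginine synthesis, lowest (−0.89 ± 0.22), and 1 higher of 8 in LNCaP-AI (GLUD1, 0.65 ± 0.12). Among the 6 lists, the synthetases had the largest share of higher calls in DU-145 (83.3%) and the lowest median in LNCaP-AI. The largest share of lower calls in LNCaP-AI was that of the folate and glycine enzymes outside the program (33.3%). It was 25% for the synthetases and 19.4% for the members. Of these 15 folate and glycine enzymes, 12 had negative values there (median −0.254), so lower values in LNCaP-AI were not particular to ATF4 targets.

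**Figure D5:**
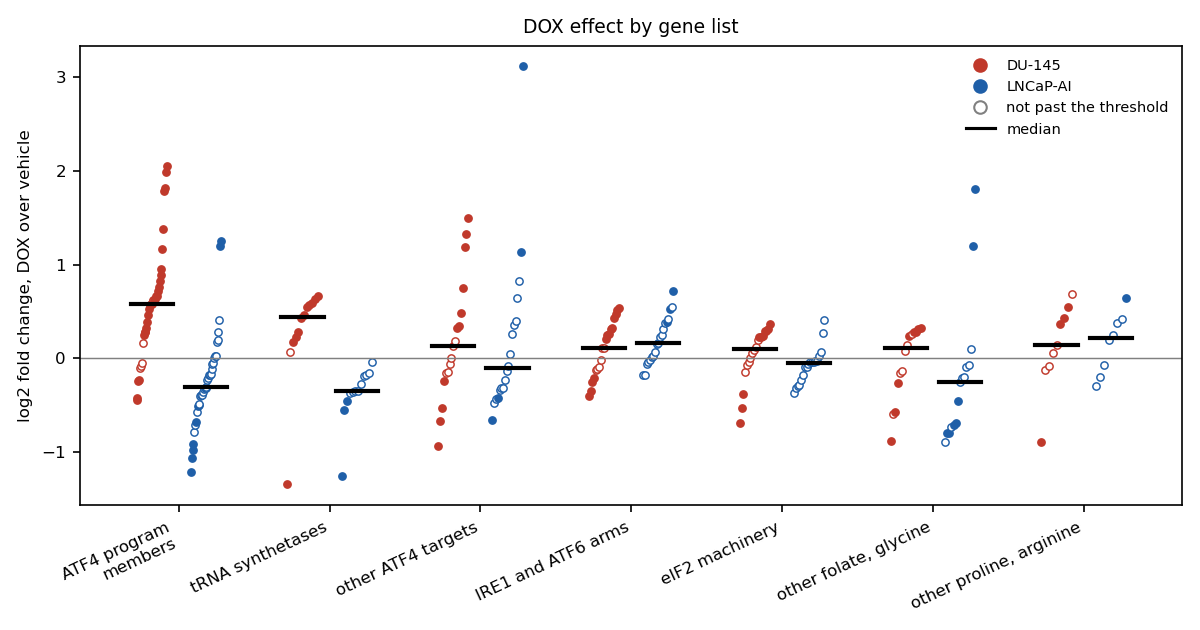
Log2 fold change of DOX over vehicle for each gene of the members and of 6 companion lists, in DU-145 (red) and LNCaP-AI (blue), with filled points for an adjusted p under 0.05 and black bars at the medians. The medians of the members are 0.576 and −0.309 and those of the tRNA synthetases 0.444 and −0.35. Those of the IRE1 and ATF6 arms are 0.116 and 0.164, with genes on both sides of 0. Those of the other folate and glycine enzymes are 0.108 and −0.254.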

How the data were processed

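RNA-seq was analysed for 12 samples in 4 groups of 3. Per the study's methods and labels, TruSeq Stranded mRNA libraries were aligned with STAR (version 2.7.0 in the submitters' processing notes, build GRCh38.p7), and the authors deposited raw counts per gene, without normalization. The counting tool and its strand setting are not given in the sources used here. Exons of 14 members overlap another gene (ASNS, ATF5, CEBPB, DDIT3, JDP2, NUPR1, VLDLR, SHMT2, MTHFD2, ALDH1L2, PYCR1, SLC7A5, SLC6A9 and SLC1A5), and their counts are uncertain to that extent. Symbols were matched by Ensembl ID for 56948 of 58037 identifiers (GENCODE annotation), and all 93 companion genes matched.

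The counts were tested with edgeR 4.0.16 (R 4.3.3, TMM, glmQLFit and glmQLFTest), keeping genes that reached 10 counts in 3 or more samples of the fit, with Benjamini-Hochberg adjustment over all genes tested. A gene was called at an adjusted p under 0.05. DOX was compared with vehicle within each line, the effects were compared by an interaction over 12 samples, and vehicle groups were compared between lines. Values after ± on log2 fold changes are standard errors, derived from the F statistic. CPM (counts divided by library size, in the usual unit of edgeR) were scaled by TMM factors over all 12 samples, with 3 counts taken as the limit that a count of 0 allows, for counting error only. Promoter windows and their sequences come from RefSeq (GRCh38.p14). Alternatives used DESeq2 1.42.0, other normalizations and filters, a joint fit, a replicate block, the division of LNCaP-AI samples and each sample left out. The scripts were tested on simulated data. No 2 samples agreed within sampling noise (lowest chi-square per degree of freedom 2.38).

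The members and lists were chosen with earlier results of these data known. The rule for values in every sample took ATF4 and, per line and direction, up to 10 called members with the largest change and groups that do not overlap. Those of PHGDH, PSAT1, PSPH, ASNS and SLC1A5 in DU-145, and of CHAC1, MTHFD2, ASNS, CTH, SLC38A2, CEBPB and PPP1R15A in LNCaP-AI, were added after their values were seen. From each companion list at most 2 called genes per direction and line are named, and some genes are not reported here.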

Additional observations from a re-analysis of the deposited data

Results flagged for a closer look

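For 20 members the effect of DOX differed between the lines in the direct test (edgeR quasi-likelihood test of the interaction over all 12 samples, Benjamini-Hochberg adjustment over 16800 genes). The values are the log2 effect in LNCaP-AI minus that in DU-145, so that a negative value is a lower effect in LNCaP-AI. Among stress factors these were ATF4 (−0.57), ATF3 (−0.83), CEBPG (−0.72) and TRIB3 (−1.49). Among effectors and feedback genes they were CHAC1 (−2.67), EIF4EBP1 (−0.99) and STC2 (−1.53). For serine and one-carbon enzymes the values were −0.80 for PSAT1, −0.52 for PSPH and −1.45 for ALDH1L2. Of the enzymes for other amino acids, ASNS (−0.98), CTH (−1.56) and PCK2 (−0.93) were lower in LNCaP-AI and ALDH18A1 was higher (0.56). The transporters were SLC7A5 (−1.03), SLC3A2 (−0.79), SLC38A2 (−0.77), SLC6A9 (−1.59), SLC1A4 (−1.48) and SLC1A5 (−0.91). The adjusted p-values ran from 1.85e-04 for TRIB3 to 0.0409 for ATF3. For 6 of these 20 (CEBPG, STC2, PSAT1, ALDH1L2, SLC6A9 and SLC1A4) the effect was called in each line and in opposite directions. The share of all genes with such opposite calls was not counted.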

How the results depend on the processing

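In DU-145 the 30 calls of members were made again under DESeq2, DESeq2 size factors, upper-quartile normalization, both other filters, the replicate block and each left-out sample. A single fit of all 12 samples called 4083 genes, 22 of the members higher and 0 lower, so JDP2, XPOT, VLDLR, ALDH18A1, CEBPB, CEBPG, DDIT4 and SLC7A1 were lost there. In LNCaP-AI, DESeq2 called 3517 genes and 14 members lower, and the fit of all 12 samples 3933 genes and 13 members lower. With the side of the division as a covariate 6271 genes were called, 5 members higher and 19 lower. The side was read from these same counts, so this fit is no independent check of the calls. With 1 side alone, 1 arm is a single sample whose spread is taken from the other samples, mostly DU-145, so these counts say nothing of stability. The samples of the side of vehicle 1 alone gave 5292 genes, 4 members higher and 22 lower, and the other side 11 members lower. Leaving out 1 sample gave 1 (without DOX 2 or without DOX 3) to 3538 genes, 0 to 3 members higher and 0 to 9 lower.

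For the difference between lines, no filter on low counts gave 884 genes and 0 members higher, the side as a covariate 4109 genes and 29 members lower, and the samples of the side of vehicle 1 or of the other side 3635 genes with 29 members lower or 2449 genes. Leaving out 1 sample gave 737 to 3471 genes and 0 to 1 members higher. The alternatives on the sides of the division were chosen after seeing the data, except for the covariate. The sides used in the covariate were themselves taken from these same counts.

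Replicate numbers were also tried as a block, although they do not pair the samples, since same-numbered samples correlated at 0.112, −0.0697 and 0.0665 in DU-145 and at −0.941, −0.813 and −0.844 in LNCaP-AI. With the block, 0 genes were called in LNCaP-AI by edgeR (2909 at an unadjusted p under 0.05), 0 members higher and 0 lower (12 at an unadjusted p under 0.05), where DESeq2 without it called 3517 genes. The block gave 52 genes for the difference between lines, 0 members higher and 5 lower.

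Across all alternatives the value took either sign for 2 of 35 members with DOX in DU-145, 8 of 36 with DOX in LNCaP-AI, 3 of 36 in the difference between lines and 7 of 36 between vehicle groups. A sign that changed with a call was seen for NUPR1, PPP1R15A and CEBPB. On the side of vehicle 1 alone, NUPR1 was −0.35 and PPP1R15A 0.54 with DOX in LNCaP-AI. CEBPB in LNCaP-AI vehicle against DU-145 vehicle ran from −1.08 to 0.37 across all alternatives. It was −0.32 without LNCaP-AI vehicle 3 and 0.37 without LNCaP-AI vehicle 1, and 0.37 is also its value with the side of vehicle 2 and vehicle 3 alone. The causes of these changes were not tested. Depth limits FGF21, NUPR1 in DU-145 and CBS in DU-145, with at most 39 counts per sample.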
